A study of Mus musculus with 4 samples.

Results

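The 9 genes described here encode milk proteins and proteins that secrete milk fat: the caseins Csn1s1, Csn1s2a, Csn2 and Csn3, the whey protein gene Wap, Lalba, Xdh, Btn1a1 and the mucin-like Glycam1. They were chosen by symbol, were all found among the 23238 gene symbols of the count files, and all 9 passed the filter on low counts with 14801 genes in total. Transcripts were measured by RNA sequencing of mammary gland tumours from female FVB mice, aged 14 weeks and that carried PyMT, the middle T oncogene of polyoma virus, under which mammary tumours form. Libraries 1 and 2 of the first group are labelled Nr1d1+/+;PyMT and those of the second Nr1d1-/-;PyMT, so PyMT is shared by all 4 libraries and there is no normal or lactating gland beside them. Nr1d1 encodes the clock repressor REV-ERBα, which binds DNA as a nuclear receptor. The promoter that drives PyMT, the exons missing from the null allele, whether the mice had been pregnant, and whether each library is from a separate animal are not stated in the labels. The p-values below therefore set each difference only against the scatter among these libraries. That scatter may be technical, so the p-values need not hold for other mice.

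During late pregnancy and lactation the alveolar cells of the mammary gland make milk. Prolactin acts through its receptor, the kinase JAK2 and the transcription factor STAT5 to raise transcription of casein and whey protein genes, together with glucocorticoids and the epithelial factor ELF5. Caseins are packed into micelles and leave the cell with whey proteins and lactose by exocytosis. Fat leaves by a separate route, in which lipid droplets coated with perilipin 2 are wrapped in the apical membrane with the help of xanthine oxidoreductase and butyrophilin. PyMT tumours arise from this epithelium, and luminal mammary tumours can keep part of the milk programme.

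Total counts ran from 15905404 to 19116279 per library, and levels are CPM, counts relative to library size, scaled with TMM factors, which remove differences in RNA composition between libraries. Levels are always given for replicate 1 and then replicate 2 of a genotype. Log2 folds set the Nr1d1-/- label over the Nr1d1+/+ label, each with its standard error (SE), tested with edgeR and adjusted over all 14801 genes. Nr1d1 itself was at 20.1 and 10.3 CPM in the Nr1d1+/+ libraries and at 10.6 and 12.8 CPM in those labelled Nr1d1-/- (log2 fold -0.37, SE 0.35, edgeR adjusted p = 0.437), so the directions below rest on the library labels. Some features of the libraries moved with the groups. Rn45s, the ribosomal RNA precursor, took 2.94% to 3.39% of counts in Nr1d1+/+ and 4.36% to 7.64% in Nr1d1-/- libraries. The 10 skeletal muscle markers summed to 821 CPM in Nr1d1-/- replicate 1 and to between 3.06 and 6.26 CPM in the other libraries, and the log2 folds of the 9 milk genes and the counts of each gene list were also computed without that library. The part of these features in the results was not tested.

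Csn1s1, Csn2, Glycam1 and Wap are shown with the DNA just before their starts. Wap is shown because it fell, and the other 3, which did not pass the test, because they hold a motif described below. Csn1s2a and Lalba did not pass either and are not printed. Promoter windows from 250 bases before to 50 bases after the annotated start (RefSeq, GRCm38.p6) matched 6 of the 9 genes: Csn1s1, Csn1s2a, Csn2, Wap, Lalba and Glycam1. The 250 bases before the start are printed for 3 genes that hold the letters recognised by STAT factors there and for Wap, the member with a window whose level fell. Capitals mark TTCNNNGAA, a motif that reads the same on both strands, and each sequence runs 5′ to 3′ towards the start.
Csn1s1, chr5:87665958-87666207, plus strand: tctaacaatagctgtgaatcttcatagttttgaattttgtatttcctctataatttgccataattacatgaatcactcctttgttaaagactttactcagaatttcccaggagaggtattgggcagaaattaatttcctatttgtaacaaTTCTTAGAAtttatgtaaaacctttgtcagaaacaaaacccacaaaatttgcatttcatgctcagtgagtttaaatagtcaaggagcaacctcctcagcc
Csn2, chr5:87699426-87699675, minus strand: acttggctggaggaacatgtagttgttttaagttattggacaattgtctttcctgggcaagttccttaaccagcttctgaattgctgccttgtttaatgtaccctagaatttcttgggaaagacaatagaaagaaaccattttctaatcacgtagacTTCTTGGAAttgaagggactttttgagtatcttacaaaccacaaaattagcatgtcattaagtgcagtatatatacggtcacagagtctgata
Glycam1, chr15:103565082-103565331, minus strand: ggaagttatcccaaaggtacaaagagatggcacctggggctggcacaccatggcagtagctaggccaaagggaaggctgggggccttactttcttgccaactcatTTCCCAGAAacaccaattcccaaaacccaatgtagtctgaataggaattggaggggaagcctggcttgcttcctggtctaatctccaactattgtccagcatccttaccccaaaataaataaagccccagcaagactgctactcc
Wap, chr11:6638650-6638899, minus strand: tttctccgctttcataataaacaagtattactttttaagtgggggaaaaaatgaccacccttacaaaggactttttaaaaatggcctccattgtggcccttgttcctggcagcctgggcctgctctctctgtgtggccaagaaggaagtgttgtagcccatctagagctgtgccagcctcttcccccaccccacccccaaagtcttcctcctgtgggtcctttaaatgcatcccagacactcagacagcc
The motif lay from 100 to 92 bases before the start in Csn1s1 as TTCTTAGAA, from 93 to 85 bases before it in Csn2 as TTCTTGGAA, and from 145 to 137 bases before it in Glycam1 as TTCCCAGAA. Csn1s2a held TTCTTAGAA from base 21 to base 29 after its RefSeq start, and the Wap and Lalba windows did not hold these letters. In the GENCODE annotation Csn1s2a starts further downstream, at 87774567, so by that start the motif lies before the gene. In all, 4 of the 6 windows held the motif, against 8.3% of all 32851 windows of the same length in the table. The nuclear receptor half-site AGGTCA, searched on both strands and possibly overlapping other motifs, was found in the Glycam1 window alone among the 6 (16.3% of all windows), as TGACCT from base 30 to base 35 after the start. The longer REV-ERB element, which contains a half-site, was in none of the 6 and in 0.384% of all windows. A match describes the letters of the reference and is not evidence of binding, and the letters may lie outside these windows.

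The milk genes fell into 3 patterns. Wap, Xdh and Btn1a1 fell in the libraries labelled Nr1d1-/-, by 3.35, 3.34 and 2.5 times. Csn3, which made up most milk gene counts, was high in all 4 libraries and did not pass the test. Csn1s1, Csn2, Csn1s2a and Glycam1 differed from 1.61 to 20 times between replicates of 1 genotype, and their genotypes overlapped. Lalba was highest in Nr1d1-/- replicate 2. By edgeR 3 of the 9 fell and none rose, where 17.3% of all tested genes fell and 16.5% rose (33.9% called in either direction). At an unadjusted p under 0.05, 3 fell and 2 were higher, while DESeq2 called 1 of the 9 higher and limma-voom called 0. Values of both genotypes did not overlap for 4 of the 9 genes, and for 70.5% of all tested genes. The median log2 fold of the 9 was 0.07, beside -0.0065 for all tested genes. In bulk tissue, fewer cells of a type and less RNA per cell cannot be told apart.

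**Figure D1:**
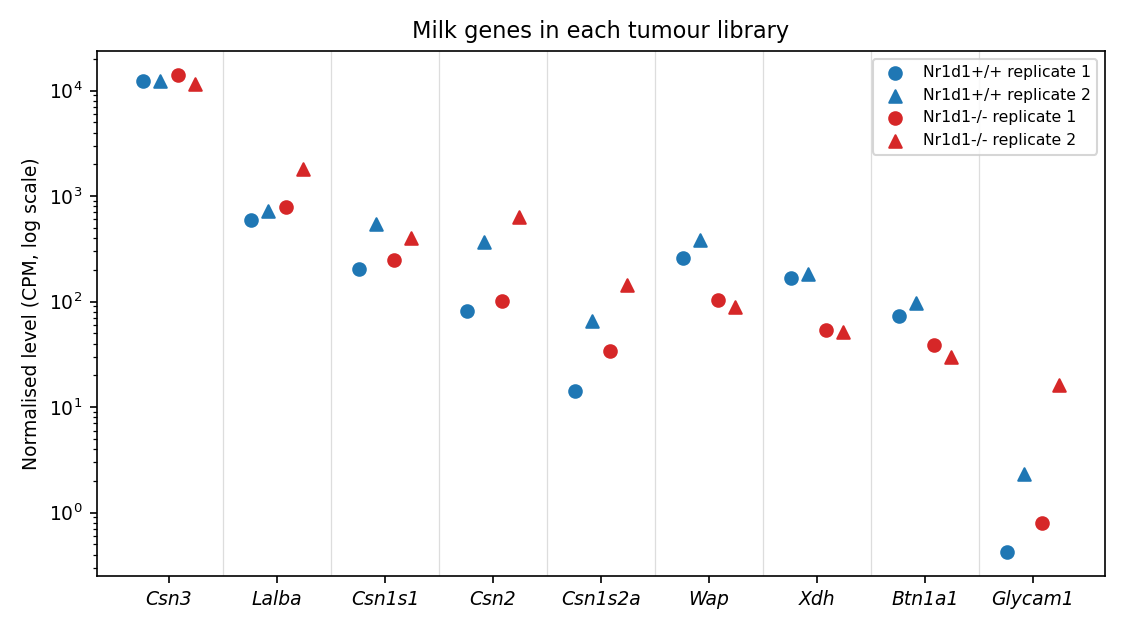
Normalised level of each milk gene (CPM, log scale) in the 4 tumour libraries. Each point is 1 library, blue for Nr1d1+/+ and red for Nr1d1-/-, circles for replicate 1 and triangles for replicate 2. Wap, Xdh and Btn1a1 are lower in both red libraries, while Csn1s1, Csn2, Csn1s2a and Glycam1 are higher in both triangles. Lalba is higher in the triangle of each colour.

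Caseins carry the calcium and phosphate of milk. Csn3 encodes κ-casein, which coats the casein micelle and keeps it in solution, and it lies on chromosome 5 from 87925579 to 87932665 on the plus strand (GRCm38). Csn3 stood at 12325 and 12208 CPM among the Nr1d1+/+ libraries and at 14158 and 11626 CPM among the Nr1d1-/- ones. These levels made it the gene with the second highest mean in Nr1d1+/+ and the third highest in Nr1d1-/- libraries. The genotypes overlapped, and the difference was 0.07 on the log2 scale (SE 0.29, edgeR adjusted p = 0.868). When libraries were scaled by size alone, the median of all genes moved to -0.38 and Csn3 to -0.31, so the sign of Csn3 depends on the scaling. Rescaling shifts all genes nearly alike, so the place of Csn3 near that median could hardly change and is no separate result. The antisense gene 1700066N21Rik spans Csn3 from the other strand without sharing exon bases, and it had 0 counts in every library.

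Csn1s1 encodes αS1-casein (chromosome 5, 87666208 to 87682578, plus strand). It was at 206 and 539 CPM among the Nr1d1+/+ libraries and at 247 and 399 CPM among the Nr1d1-/- ones. Both extremes were Nr1d1+/+ libraries, so the genotypes overlapped entirely (log2 fold -0.20, SE 0.40, edgeR adjusted p = 0.721). The sign turned when Nr1d1+/+ replicate 2 was left out (0.63) and when Nr1d1-/- replicate 1 was (0.097).

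Csn2 encodes β-casein, which is abundant in mouse milk (chromosome 5, 87692624 to 87699630, minus strand). This span is from GENCODE and begins upstream of the RefSeq start used for the window printed above. By the GENCODE span, most of that window and its STAT motif lie inside the gene. Its level was 81.5 and 366 CPM among the Nr1d1+/+ libraries and 101 and 637 CPM among the Nr1d1-/- ones. The library numbered 2 was thus 4.49 times the other in Nr1d1+/+ and 6.30 times the other in Nr1d1-/-. A difference between replicates at least that large was seen in 0.682% of tested genes within Nr1d1+/+ and in 1.51% within Nr1d1-/-. Between genotypes it differed by 0.72 on the log2 scale (SE 0.79, edgeR adjusted p = 0.507); leaving out Nr1d1-/- replicate 2 gave -1.16 and leaving out Nr1d1+/+ replicate 2 gave 2.17.

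Csn1s2a encodes an αS2-like casein (chromosome 5, 87774567 to 87788797, plus strand). It followed Csn2, with 14.3 and 65.3 CPM among the Nr1d1+/+ libraries and 34.4 and 143 CPM among the Nr1d1-/- ones. The library numbered 2 was again the higher of each genotype, by 4.56 and 4.17 times, and the genotypes overlapped. Its difference of 1.16 on the log2 scale did not pass (SE 0.71, edgeR adjusted p = 0.233). It passed without Nr1d1+/+ replicate 2 (2.62, edgeR adjusted p = 0.0223) and without Nr1d1-/- replicate 1 (1.85, edgeR adjusted p = 0.0402), and turned to -0.23 without Nr1d1-/- replicate 2. Labels do not say what libraries of the same replicate number share, so the shared number is not read as a pairing. The deviations of same-numbered libraries correlated at 0.026 over all tested genes. A value over all genes cannot tell whether a small set such as these caseins shares a factor.

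The casein genes stand in a cluster on chromosome 5, which also holds genes that are not caseins. Csn1s2b, a further αS2-like casein gene, had 45 and 30 counts among the Nr1d1+/+ libraries and 4 and 23 counts among the Nr1d1-/- ones (log2 fold -0.98, SE 0.70, edgeR adjusted p = 0.304). Odam, an enamel-associated gene, had 9, 18, 1 and 19 counts in the same order and did not pass (edgeR adjusted p = 0.973). The pseudogene Gm7337 had 39, 36, 100 and 45 counts and did not pass (log2 fold 1.48, SE 0.54, edgeR adjusted p = 0.0642). Prr27 had 5 counts in Nr1d1-/- replicate 2 and 0 elsewhere, and 1700066N21Rik and BC037156 had 0 throughout. Counts in the cluster thus ran from 0 to the 260707 of Csn3 in Nr1d1+/+ replicate 1, and Csn3 starts 259.4 kb from the start of Csn1s1. Of the nearest genes outside it, Sult1d1 (16, 44, 5 and 7 counts, edgeR adjusted p = 0.127) and Smr2 (16, 16, 6 and 6 counts, edgeR adjusted p = 0.402) were tested and did not pass, and Sult1b1, Sult1e1, Cabs1 and Smr3a had too few counts.

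Wap encodes whey acidic protein, a classical marker of late pregnancy and lactation (chromosome 11, 6635482 to 6638637, minus strand). Its level was 260 and 387 CPM among the Nr1d1+/+ libraries and 105 and 88.5 CPM among the Nr1d1-/- ones. Both Nr1d1-/- libraries were below both Nr1d1+/+ libraries, and Wap fell 3.35-fold (log2 fold -1.75, SE 0.23, edgeR adjusted p = 0.00225). Only 3.3% of tested genes had a log2 fold as low. The fold was larger once trends with GC and length were taken out, at -2.42 (edgeR adjusted p = 0.00186), and Wap passed in each of the other settings, leaving out each library in turn included.

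Lalba encodes α-lactalbumin, which joins the galactosyltransferase B4galt1 to form lactose synthase (chromosome 15, 98480400 to 98482721, minus strand). Its level was 592 and 724 CPM among the Nr1d1+/+ libraries and 791 and 1805 CPM among the Nr1d1-/- ones. Both Nr1d1-/- values were above both Nr1d1+/+ values, but the second stood at 2.28 times the first. The log2 fold of 0.98 (SE 0.34) missed the threshold with an edgeR adjusted p of 0.0541. It was 1.45 without Nr1d1-/- replicate 1 (edgeR adjusted p = 0.00563), 0.25 without Nr1d1-/- replicate 2 (0.476) and 0.47 with GC and length trends removed (0.356). B4galt1, which was named after its values were seen, went the other way: it was 99.6 and 131 CPM among the Nr1d1+/+ libraries and 78.4 and 69.7 CPM among the Nr1d1-/- ones and fell (log2 fold -0.64, SE 0.20, edgeR adjusted p = 0.0364). It no longer passed without Nr1d1+/+ replicate 2 (edgeR adjusted p = 0.235), Nr1d1-/- replicate 1 (0.0546) or Nr1d1-/- replicate 2 (0.105), nor with the trends removed (0.117) or with no filter on low counts (0.0531).

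Wap and Lalba, both whey proteins made by the same secretory cell, thus stood in different proportion in the groups. There were 440 and 534.5 Wap counts per 1000 Lalba counts among the Nr1d1+/+ libraries, against 132 and 49 among the Nr1d1-/- ones. This ratio is taken within a library and does not depend on the scaling. The lowest ratio came from Nr1d1-/- replicate 2, the library where Lalba was highest. Levels of single genes did not overlap between genotypes for 70.5% of all tested genes. The same share for ratios to Lalba was not computed, so the separation is not read as a mark of this pair.

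Xdh and Btn1a1 belong to the machinery that envelops milk fat. Xdh encodes xanthine dehydrogenase, an enzyme of purine breakdown that also has a structural role in the milk fat globule membrane (chromosome 17, 73883895 to 73950196, minus strand). It stood at 168 and 182 CPM among the Nr1d1+/+ libraries and at 53.9 and 51.3 CPM among the Nr1d1-/- ones. Replicates lay close together and the genotypes far apart, with a 3.34-fold fall (log2 fold -1.74, SE 0.18, edgeR adjusted p = 0.00132) whose adjusted p stayed at or under 0.00839 in each setting and tool. Btn1a1 encodes butyrophilin, the membrane protein that binds xanthine oxidoreductase (chromosome 13, 23456992 to 23465901, minus strand). It was 73.7 and 98 CPM among the Nr1d1+/+ libraries and 38.7 and 30.1 CPM among the Nr1d1-/- ones, a 2.5-fold fall (log2 fold -1.32, SE 0.22, edgeR adjusted p = 0.00412). Its groups did not overlap, and without a single library its log2 fold ran from -1.56 to -1.13 with edgeR adjusted p-values of at most 0.0203.

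Plin2, the lipid droplet protein that joins them at the membrane, was named after its values were seen. It was 157 and 190 CPM among the Nr1d1+/+ libraries and 115 and 122 CPM among the Nr1d1-/- ones, and it fell by 0.55 on the log2 scale (SE 0.18, edgeR adjusted p = 0.0434). That call is near the threshold: it was lost without Nr1d1+/+ replicate 2 (edgeR adjusted p = 0.244), without Nr1d1-/- replicate 1 (0.128) or replicate 2 (0.0759), with upper-quartile scaling (0.0619), with no filter (0.0589) and with a minimum mean of 5 CPM (0.052), and it was at 0.05 with the older quasi-likelihood estimate.

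Glycam1 encodes a secreted mucin-like protein of milk that is also made by high endothelial venules, the vessels through which lymphocytes enter lymph nodes (chromosome 15, 103562759 to 103565081, minus strand). It was the lowest member, with 9 and 49 counts among the Nr1d1+/+ libraries and 11 and 260 counts among the Nr1d1-/- ones, or 0.425, 2.34, 0.806 and 16.1 CPM. Nr1d1-/- replicate 2 stood alone, at 20 times the level of the other Nr1d1-/- library, a replicate difference reached by 38 of the tested genes (0.257%). The genotypes overlapped, and the log2 fold of 2.64 (SE 1.07, edgeR adjusted p = 0.0862) turned to -0.79 without that library. It passed without Nr1d1-/- replicate 1 (3.54, edgeR adjusted p = 0.00456). Of the markers of high endothelial venules, Chst4 had 0 counts in Nr1d1-/- replicate 2, which allows up to 0.186 CPM, and Fut7 had 0. Madcam1 and Sele, each at that same 0.186 CPM there, and Ackr1, at 0.682 CPM, were nominally highest in that library. Sele was at 0.144 CPM in Nr1d1+/+ replicate 2, and Ackr1 at 0.586 CPM in Nr1d1-/- replicate 1. Levels so near 0 do not rank the libraries. Ccl21a (0.124 CPM), Selp (0.806 CPM) and Gcnt1 (6.08 CPM) were higher in another library. The 10 markers of that list, Glycam1 included, summed to between 88.6 and 118.5 CPM in the 4 libraries. Most of it came from Chst2 (73.1 to 90.3 CPM), which other cells also express. Of 4 tested markers 1 fell and 0 rose, beside 17.3% and 16.5% of all tested genes. Which cells made Glycam1 was not tested.

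**Figure D2:**
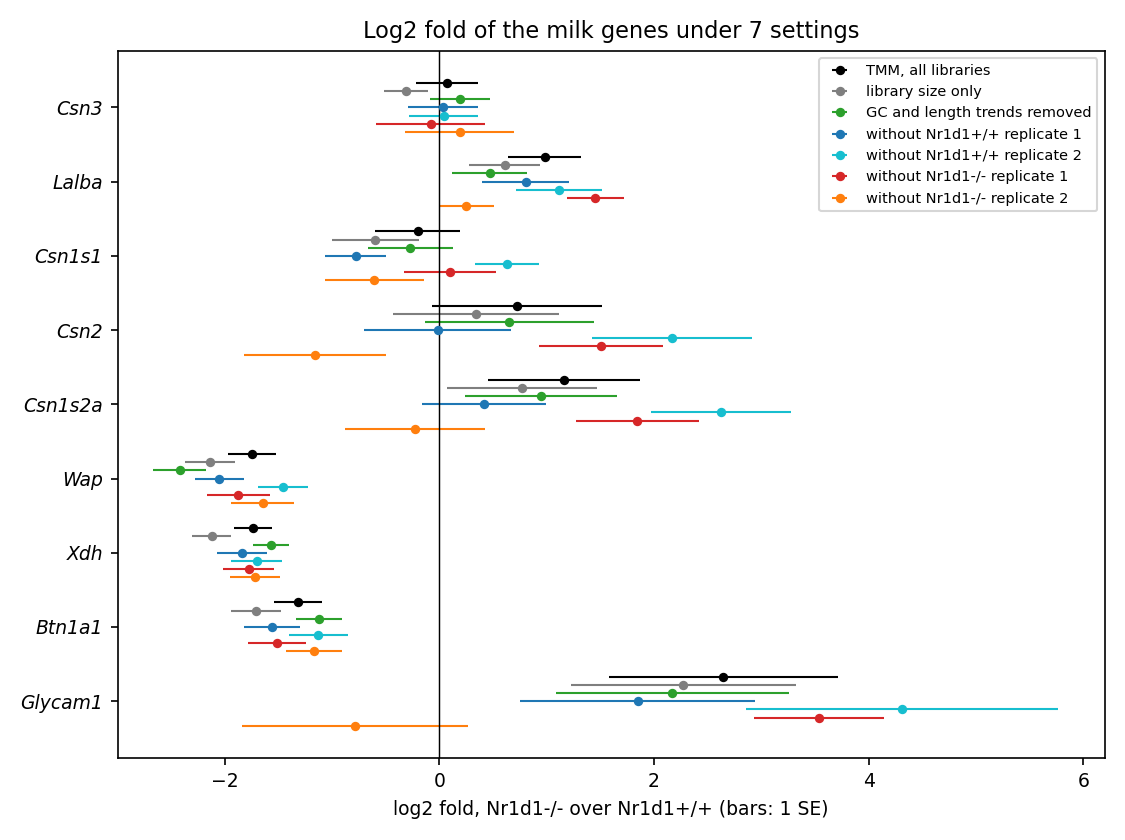
Log2 fold of each milk gene, Nr1d1-/- label over Nr1d1+/+ label, under 7 settings; points are edgeR estimates and bars 1 SE. Wap, Xdh and Btn1a1 stay below 0 in each of the settings drawn, while Csn1s1, Csn2, Csn1s2a and Glycam1 change sign with the library left out. Csn3 also turns, to -0.080 without Nr1d1-/- replicate 1 and to -0.31 with library size only.

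Milk transcripts were a visible part of these tumours' RNA. The 9 genes together took 1.52% (95% interval 1.51 to 1.52) and 1.71% (1.71 to 1.72) of counts among the Nr1d1+/+ libraries and 1.33% (1.33 to 1.34) and 1.32% (1.32 to 1.33) among the Nr1d1-/- ones. These are exact Clopper-Pearson intervals that cover counting error only, and the share is of raw counts. With TMM scaling the 9 genes summed to 13721 and 14572 CPM in Nr1d1+/+ libraries and to 15530 and 14796 CPM in Nr1d1-/- ones. The direction between the genotypes thus depends on the scaling. The share was 1.62% ± 0.138 (SD, n = 2) in Nr1d1+/+ and 1.33% ± 0.00595 (SD, n = 2) in Nr1d1-/-, with an exact two-sided permutation p of 0.333, which is the smallest that 2 samples against 2 allow. Csn3 alone made up 78.6% to 91.2% of these counts. The other 8 genes took 0.155% and 0.278% of counts among the Nr1d1+/+ libraries and 0.118% and 0.284% among the Nr1d1-/- ones, so that the order followed the single library and not the genotype.

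Levels of different genes were compared as CPM per kilobase of the longest protein-coding transcript. In Nr1d1+/+ libraries (mean ± SD, n = 2) the order was Csn3 at 7686 ± 52, Lalba at 853 ± 121, Wap at 587 ± 163, Csn1s1 at 264 ± 167, Csn2 at 168 ± 151, Csn1s2a at 43.3 ± 39.2, Xdh at 38.1 ± 2.17, Btn1a1 at 25.1 ± 5.02 and Glycam1 at 2.16 ± 2.12. Neighbours from Csn1s1 through Csn2 and Csn1s2a to Xdh overlapped between libraries, and the other neighbours did not. In Nr1d1-/- libraries Wap stood at 175 ± 20.7, below Csn2 at 278 ± 285 and Csn1s1 at 229 ± 76, and Glycam1 at 13.2 ± 16.9 stood beside Xdh at 11.4 ± 0.405 and Btn1a1 at 10.04 ± 1.78. Glycam1 was below both in Nr1d1-/- replicate 1, at 1.26, and above both in replicate 2, at 25.15. By these means Wap was the third of the 9 in Nr1d1+/+ and the fifth in Nr1d1-/-, but the fifth place came from replicate 2, where Wap was at 161, Csn1s1 at 283 and Csn2 at 479. In Nr1d1-/- replicate 1 Wap was at 190, above Csn1s1 at 175 and Csn2 at 76.1, so the order of these 3 was not settled there.

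Because Csn3 differed little between libraries, counts of the other members were also set against it within each library. Wap stood at 21.1 and 31.7 counts per 1000 Csn3 counts among the Nr1d1+/+ libraries and at 7.39 and 7.61 among the Nr1d1-/- ones. For Xdh the values were 13.7 and 14.95 against 3.81 and 4.41, and for Btn1a1 5.98 and 8.03 against 2.73 and 2.59. The ratios of these 3 genes, of 8, did not overlap between genotypes, where 67.7% of all 14800 tested genes other than Csn3 had ratios to Csn3 that did not overlap (36.8% with both Nr1d1-/- ratios below), so separation is no mark of these genes. Csn2 stood at 6.61, 29.95, 7.15 and 54.8 counts per 1000 Csn3 counts in the same order of libraries, and Lalba at 48, 59.3, 55.9 and 155, with overlap between the genotypes for both.

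**Figure D3:**
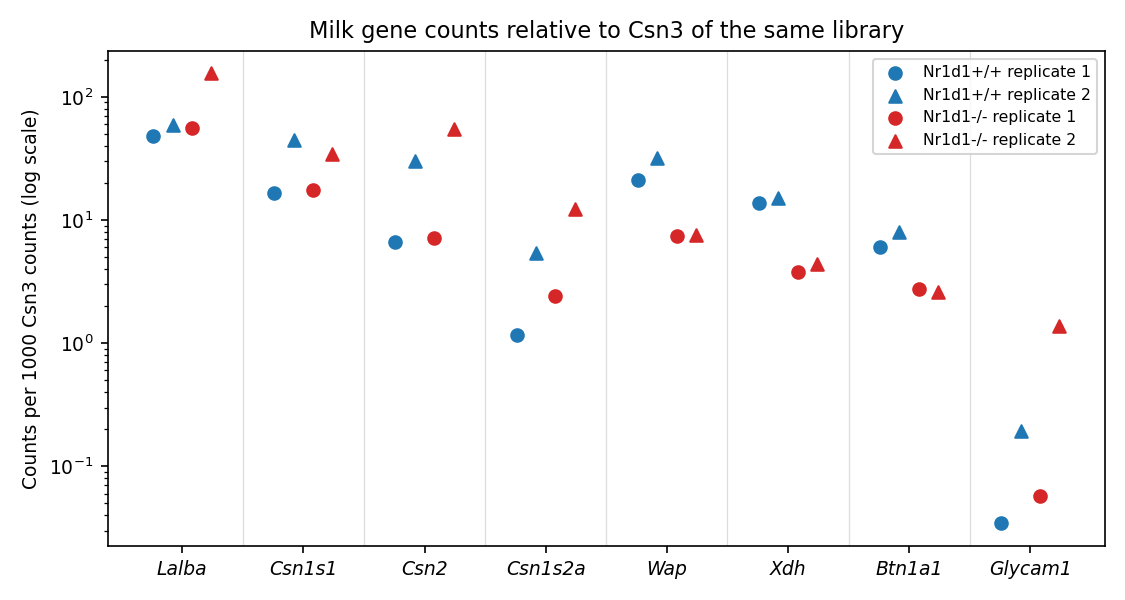
Counts of 8 milk genes per 1000 Csn3 counts of the same library (log scale), with colours and symbols by genotype and replicate. Ratios of Wap, Xdh and Btn1a1 separate the genotypes, and those of the other 5 genes overlap.

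Profiles of the members over the 4 libraries were compared. After centring log2 CPM over the 4 libraries, the closest pair was Wap and Xdh, with a root-mean-square difference of 0.172, followed by Wap and Btn1a1 (0.215), Xdh and Btn1a1 (0.256) and Csn1s2a and Csn2 (0.383). The pair farthest apart was Xdh and Glycam1 (2.41). Among 10830 other tested genes whose mean reached 5 CPM, the 5 nearest to Wap were St5 (0.0218), Tcf12 (0.0341), Herpud2 (0.0631), Magi3 (0.0813) and Ppfibp1 (0.0821). All 5 lay nearer to Wap than Xdh did, so closeness to Wap is no mark of the milk genes. For Csn2 the nearest was Csn1s2a, followed by Ccl11 (0.44), Retnla (0.514), Mfap2 (0.589) and Myh11 (0.664). Ccl11 is an eosinophil chemokine and Myh11 a smooth muscle myosin, and their highest libraries were also Nr1d1-/- replicate 2, at 17.2 and 21.8 CPM. For Glycam1 the nearest was Pole2 (0.758), a DNA polymerase epsilon subunit, at 11.2, 12.2, 8.72 and 120 CPM in the usual order, followed by Csn1s2a (0.789), Csn2 (0.796), Retnla (1) and Myh11 (1.08).

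Genes of the prolactin and STAT5 pathway were divided. Among the 19 with a test there were 5 rises, 5 falls and 9 without a call (16.5% of all tested genes rose and 17.3% fell), with a median log2 fold of -0.055. Stat5a, the main mediator of prolactin in the gland, was 44.2 and 49.5 CPM among the Nr1d1+/+ libraries and 20.4 and 23.9 CPM among the Nr1d1-/- ones, and fell (log2 fold -1.08, SE 0.21, edgeR adjusted p = 0.00662). Its paralog Stat5b fell from 62.5 ± 7.98 to 32.7 ± 2.47 CPM (SD, n = 2; log2 fold -0.93, SE 0.20, edgeR adjusted p = 0.0094). How reads of their similar stretches were split is not known. Upstream of them, the prolactin receptor Prlr stood at 34.1 and 43.1 CPM against 38 and 29.6 CPM (log2 fold -0.19, SE 0.23, edgeR adjusted p = 0.542), and removing GC and length trends turned its sign (0.35). Elf5, which works beside STAT5 in alveolar cells, was at 688 and 688 CPM against 740 and 554 CPM (log2 fold -0.09, SE 0.20, edgeR adjusted p = 0.753). The sign of Elf5 turned with those trends removed (0.022) and also when Nr1d1-/- replicate 2 was left out (0.087). Cish, a feedback inhibitor and target of STAT5, was at 7.33 and 7.37 CPM against 6.08 and 6.14 CPM (log2 fold -0.27, SE 0.32, edgeR adjusted p = 0.55).

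The pathway genes with the lowest p-values beside them were Wnt4 and Id2. Wnt4, a paracrine signal of ductal branching, rose from 41.2 ± 11.5 to 333 ± 214 CPM (SD, n = 2; log2 fold 3.01, SE 0.43, edgeR adjusted p = 0.00264); this was 2.14 without Nr1d1-/- replicate 1. Id2, an inhibitor of differentiation that alveolar development requires, fell from 264 ± 10.7 to 137 ± 8.82 CPM (SD, n = 2; log2 fold -0.95, SE 0.17, edgeR adjusted p = 0.0048). Without Nr1d1+/+ replicate 2, 1 gene of this list rose and 3 fell, with library size only 2 rose and 5 fell, and the list's median turned to 0.022 with the trends removed.

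Other milk and whey proteins, 16 tested, had 1 rise and 2 falls, where 33.9% of all tested genes were called, and a median log2 fold of -0.25. Pigr, the receptor that carries immunoglobulin A into milk, rose from 2452 ± 221 to 8991 ± 2520 CPM (SD, n = 2; log2 fold 1.87, SE 0.29, edgeR adjusted p = 0.00301). Muc15, a mucin of the milk fat globule membrane, fell from 614 ± 177 to 232 ± 83.2 CPM (SD, n = 2; log2 fold -1.40, SE 0.29, edgeR adjusted p = 0.00778). Cd14, a soluble milk receptor for bacterial lipopolysaccharide that myeloid cells also make, fell by 0.56 on the log2 scale (SE 0.17, edgeR adjusted p = 0.0349), a call lost without Nr1d1+/+ replicate 1 (edgeR adjusted p = 0.0894), Nr1d1+/+ replicate 2 (0.111) or Nr1d1-/- replicate 2 (0.119). Without 1 library at a time, 1 to 3 genes rose (2 without Nr1d1+/+ replicate 2 or Nr1d1-/- replicate 1, 3 without Nr1d1-/- replicate 2) and 1 to 3 fell, and with library size only 5 fell. The median was 0.022 when Nr1d1+/+ replicate 1 was left out and 0.02 when replicate 2 was.

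Genes of milk fat synthesis and secretion, 29 tested apart from Xdh and Btn1a1, had 5 rises and 8 falls, beside 16.5% and 17.3% of all tested genes, with a median log2 fold of -0.22. Scd2, a desaturase of fatty acids, fell from 251 ± 14.2 to 126 ± 10.1 CPM (SD, n = 2; log2 fold -0.99, SE 0.17, edgeR adjusted p = 0.00436), and its paralog Scd1 and the lipoprotein lipase gene Lpl changed by -2.14 (SE 0.32) and 2.43 (SE 0.36). Rab18, a small GTPase of lipid droplets, fell by 1.10 on the log2 scale (SE 0.20, edgeR adjusted p = 0.00517), which became 0.50 and no longer passed once those trends were taken out (edgeR adjusted p = 0.0959). Fasn, the fatty acid synthase, was at 132 and 138 CPM in Nr1d1+/+ and 152 and 113 CPM among the Nr1d1-/- ones, and it was picked out after its values were seen (log2 fold -0.03, SE 0.19, edgeR adjusted p = 0.927). With library size only 1 rose and 12 fell, with the trends removed 2 rose and 6 fell, without Nr1d1+/+ replicate 2 1 rose and 5 fell, and without Nr1d1+/+ replicate 1 or Nr1d1-/- replicate 1 2 rose and 7 or 8 fell.

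Genes of lactose synthesis and milk ion transport, 19 tested, had 3 rises and 5 falls, beside the same 16.5% and 17.3% of all tested genes, with a median log2 fold of -0.45. Slc12a2, a sodium, potassium and chloride cotransporter, fell from 230 ± 16.1 to 74.6 ± 8.82 CPM (SD, n = 2; log2 fold -1.62, SE 0.18, edgeR adjusted p = 0.00184). The phosphate carrier Slc20a2 fell by 1.03 (SE 0.25) and the Golgi calcium pump Atp2c1 by 0.90 (SE 0.23), while the amino acid transporter Slc7a5 rose by 0.74 (SE 0.18), all on the log2 scale. These 3 calls were not stable: Atp2c1 did not pass once those trends were taken out (edgeR adjusted p = 0.271) or without Nr1d1+/+ replicate 2 (0.0973) or Nr1d1-/- replicate 2 (0.0588). Slc20a2 was lost without Nr1d1+/+ replicate 2 (0.128), and Slc7a5 without Nr1d1+/+ replicate 1 (0.0912) or 2 (0.0742), without Nr1d1-/- replicate 1 (0.0683) and with library size only (0.158). With library size only none rose and 10 fell by edgeR, without Nr1d1+/+ replicate 2 none rose and 1 fell by edgeR, without Nr1d1+/+ replicate 1 or Nr1d1-/- replicate 1 1 rose and 4 fell, without Nr1d1-/- replicate 2 3 rose and 3 fell, and with the trends removed 2 rose and 2 fell.

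**Figure D4:**
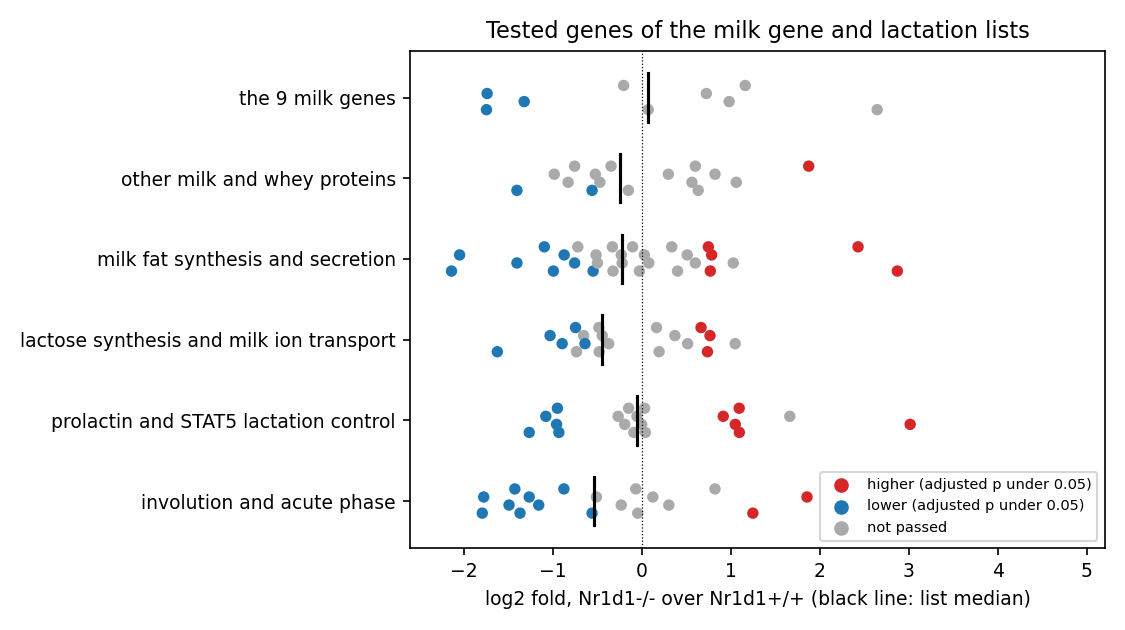
Log2 fold of every tested gene in the 9 milk genes and 5 lactation lists; each point is 1 gene, red or blue where it passed the edgeR threshold, grey where it did not, and black lines are list medians. Calls go both ways in each of the 5 lists, while the 3 calls among the 9 milk genes are all lower.

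Markers of the epithelium in which milk genes are expressed were present in every library. The counts of calls below stand beside 16.5% of all tested genes that rose and 17.3% that fell. A single call in the short hormone-sensing, lymphocyte and skin lists cannot be told from these shares. The 10 luminal markers, which include Krt8, Krt18 and Epcam, summed to 6269 and 5268 CPM among the Nr1d1+/+ libraries and to 10080 and 9430 CPM among the Nr1d1-/- ones, with 4 rises and 1 fall. Without Nr1d1-/- replicate 1, 2 of them rose and none fell by edgeR, as also once GC and length trends were taken out, where their median log2 fold of 0.42 turned to -0.34. The 10 alveolar progenitor markers, with Csn3 among them, summed to 44750 and 34150 CPM against 45370 and 46300 CPM, with 2 falls and no rise (1 rise and 1 fall without Nr1d1+/+ replicate 1). Of 7 tested markers of hormone-sensing luminal cells 1 fell and none rose, and Pgr and Foxa1 were under 1 CPM in each library. The 10 basal and myoepithelial markers summed to 179 and 193 CPM against 393 and 557 CPM, with 6 rises and 1 fall, and the 12 adipocyte markers to 44.2 and 81.2 CPM against 206 and 134 CPM, with 4 rises among 10 tested. Macrophage markers had 3 rises among 10 (159 and 247 CPM against 344 and 504 CPM), endothelial markers 6 among 10 (52 and 63.2 CPM against 105 and 123 CPM) and red blood cell markers 5 among 6 (454 and 582 CPM against 2018 and 2195 CPM), each with no fall. Endothelial rises numbered 3 when any of Nr1d1+/+ replicate 1, Nr1d1+/+ replicate 2 or Nr1d1-/- replicate 2 was left out. Adipocyte rises numbered 2 when Nr1d1+/+ replicate 1 or Nr1d1-/- replicate 1 was, and 1 with GC and length trends removed. Only 4 basal markers rose with library size only or when either Nr1d1+/+ library or Nr1d1-/- replicate 2 was left out. Lymphocyte markers had 1 rise among 6 tested, salivary gland markers 2 among 6 and skin markers 1 fall among 3, counts that ran from 0 to 1, from 1 to 3 and from 0 to 1 without a single library. The luminal sum was carried by keratins: Krt8, Krt18, Krt19 and Krt7 rose, Cdh1 fell from 331 to 200 CPM on average, and Epcam, at 1064 and 828 CPM on average, did not pass. These luminal markers thus went both ways where Wap, Xdh and Btn1a1 were lower, and the part of cell composition in the milk gene levels was not tested.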

How the data were processed

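Trizol RNA went into libraries of a strand-marking Clontech SMARTer kit, per the labels' protocols. TopHat and the mouse assembly mm10 are named in the submitters' processing notes; no source used here gives the counting program, annotation or use of strand. The authors deposited unnormalised counts, 1 value per gene symbol and library. Everything else was computed here. Genes were kept with filterByExpr (minimum count 10), scaled with TMM and tested with the quasi-likelihood test of edgeR 4.0.16 (legacy=FALSE, R 4.3.3), genotype as the only term, with 2 residual degrees of freedom, at a Benjamini-Hochberg adjusted p under 0.05. SE is the log2 fold over the square root of F. Positions and lengths are from GENCODE M21 (GRCm38, the assembly of mm10). The union of exons, first intended for levels per length, holds retained introns (6926 bases for Csn2), so the longest protein-coding transcript was used (1329 bases); by the union, Btn1a1 stands above Xdh. Members, gene lists, tests and alternatives were chosen with earlier results of these data known. Named genes were all members, casein cluster genes, Prlr, Stat5a, Stat5b, Elf5 and Cish, up to 4 called genes per list with the lowest p, and the 5 nearest profiles of Csn2, Wap and Glycam1. List counts under other settings, levels per transcript length, and the settings for Nr1d1, B4galt1 and Plin2 were added after seeing the data. GC and length trends were removed with natural splines (5 degrees of freedom) as offsets. DESeq2 1.42.0 and limma 3.58.1 (voom) were alternatives. Tested on simulated data for 2 against 2 libraries (14599 genes), edgeR found 17.3% of the 2-fold and 90.9% of the 4-fold changes, and called 0.0347% of genes simulated without change. That simulation changed only a small part of the genes, with a common spread and no difference in RNA composition. In the data 33.9% of tested genes were called, so these rates need not hold for these libraries. Replicates differed by far more than sampling noise (chi-square per degree of freedom 40.7 and 52.8).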

Additional observations from a re-analysis of the deposited data

How the results depend on the processing

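Of 161 refits of the 9 milk genes, 137 kept direction and side of the threshold, 16 newly passed, 8 changed sign and 0 lost a call; Wap, Xdh and Btn1a1 passed in all of theirs, and Glycam1 was not tested under a minimum mean of 5 CPM. The count of milk genes lower stayed at 3 in each setting. The share of counts in the 9 genes moved by less than the replicate spread, in settings that did not vary the scaling. The count of milk genes higher, 0 by edgeR, was 1 (Lalba) with upper-quartile scaling, under a minimum mean of 5 CPM and with DESeq2, 2 at an adjusted p under 0.1 and 0 to 3 without a single library. With the replicate number as a block it was 4 (Lalba, Glycam1, Csn2 and Csn1s2a), and 3 with the block and GC and length trends removed; the labels give no pairing, and the block left 2622 genes higher and 2704 lower. Over all genes, 1281 were higher and 4415 lower with library size only (22.5% of calls higher in place of 48.8%), 1602 and 1631 with the trends removed, and 1036 to 2358 and 1170 to 2401 without a single library, against 2446 and 2565. Signs turned as follows. With library size only, Csn3 had -0.31 and Odam -0.32. Without Nr1d1+/+ replicate 1, Csn2 had -0.018, Odam -0.41, Ccl11 -0.055 and Nr1d1 0.14. Without Nr1d1+/+ replicate 2, Csn1s1 had 0.63. Without Nr1d1-/- replicate 1, Csn1s1 had 0.097 and Csn3 -0.080. Without Nr1d1-/- replicate 2, Csn1s2a had -0.23, Csn2 -1.16, Glycam1 -0.79, Elf5 0.087, Odam -3.04, Ccl11 -0.68, Retnla -0.72, Mfap2 -0.067 and Pole2 -0.44. With the trends removed, Prlr had 0.35 and Elf5 0.022, and with the block as well 0.35 and 0.0039, with Odam -0.15 and Mfap2 -0.044. Odam, at 1 to 19 counts, also had -0.024 with DESeq2, -0.69 with limma-voom, -0.0068 with the older quasi-likelihood estimate and -0.12 with the block alone. Without a single library the ranges of these genes reached -0.78 to 0.63 for Csn1s1, 2.62 for Csn1s2a, 2.17 for Csn2, 0.19 for Csn3, 4.31 for Glycam1, 0.87 for Odam, 1.32 for Ccl11, 1.74 for Retnla, 1.51 for Mfap2, 3.36 for Pole2 and -0.80 for Nr1d1. The cause of these turns was not tested beyond the library left out. Depth limits Glycam1, at 9 and 11 counts in 2 libraries, and the untested cluster genes.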

Other observations

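Genes known from mammary involution, the regression of the gland after weaning, and its acute phase had 9 falls and 2 rises among 18 tested, where 17.3% of all tested genes fell and 16.5% rose. The other 7 did not pass, and the list had a median log2 fold of -0.53 beside -0.0065 for all tested genes. Stat3, the factor that drives involution, fell from 307 ± 25.5 to 89.5 ± 9.3 CPM (SD, n = 2; log2 fold -1.78, SE 0.18, edgeR adjusted p = 0.00134), and Osmr, the oncostatin M receptor upstream of it, fell from 140 ± 12.5 to 40.5 ± 1.79 CPM (SD, n = 2; log2 fold -1.79, SE 0.18). Tgfb3 fell by 1.16 on the log2 scale (SE 0.19), and the matrix protease Mmp3 rose by 1.86 (SE 0.28). The acute phase genes Saa1 and Saa2, which are near-identical copies whose reads may be split between them, were picked out after their values were seen and were highest in Nr1d1+/+ replicate 2, at 907 and 1339 CPM. Without Nr1d1+/+ replicate 2, 4 genes of the list fell, without either Nr1d1-/- library 5 and without Nr1d1+/+ replicate 1 7, each with 2 rises, and with GC and length trends removed 8 fell and 1 rose.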
